A study of Homo sapiens with 6 samples.

Results

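Kinesins and tubulins were taken as all probes whose array-annotation gene symbol belongs to the KIF series, to KIFC1, KIFC2 or KIFC3, or to the alpha-, beta-, gamma-, delta- or epsilon-tubulin series. This rule, which uses names and no measured value, found 91 of 47323 probes and 64 of 20046 genes: 41 kinesins and 23 tubulins. CENPE, a mitotic kinesin whose symbol lies outside the KIF series, is therefore no member and is given among the partner genes. The cells were HepG2, an established human hepatoma line that still makes many liver plasma proteins. The study set PBLD overexpressed HepG2 cells (3 arrays) against control HepG2 cells (3 arrays), with total RNA hybridised to Illumina bead arrays. The construct, its promoter, the number of clones and whether control cells carried an empty vector are not given in the sources used here.

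Kinesins are motor proteins that use ATP to move along or take apart microtubules, the hollow filaments built from pairs of alpha- and beta-tubulin. Mitotic kinesins build and lengthen the spindle, move chromosomes and complete cytokinesis, and many are made mainly late in the cell cycle. Transport kinesins carry vesicles, organelles and ciliary cargo in dividing and resting cells alike. Gamma-tubulin starts new microtubules at the centrosome, and the beta-tubulin isotypes differ mainly in their tails and in the tissues that make them.

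The kinesins were grouped by role, with KIF2A, a relative of KIF2C, placed among the cilium and other kinesins. Calls differed between the classes drawn in this way. Of the 13 measured mitotic kinesins, 10 rose in PBLD cells and 0 fell, by 1.19-fold to 1.56-fold. Of the 15 transport kinesins, 1 rose (KIF5B) and 1 fell (KIFC2), and of the 13 cilium and other kinesins 1 rose (KIF21A, a call made in 4 of 16 alternatives). Of the 23 tubulins, the alpha-tubulins TUBA1A and TUBA1B and the gamma-tubulin TUBG1 rose, while the beta-tubulins TUBB1, TUBB2A and TUBB2B fell. TUBG1 was called in 7, the mitotic kinesin KIF15 in 9 and TUBA1B in 11 of the 16 alternatives. A gene was called when its limma p, adjusted by Benjamini-Hochberg over all probes, was under 0.05. By this rule 10% of all genes were called, 5.81% higher and 4.2% lower in PBLD cells. Over single probes, whose calls are given where a gene has several, the share was 6.08%.

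The arrays and the target gene were checked first. On the deposited log2 scale every array had a median of 8, and between 18800 and 20004 probes per array lay above a background limit of 8.05 to 8.08, set from 569 probes of genes silent in liver. The brightest PBLD probe read 12.62, 12.84 and 12.72 in PBLD cells and 8.0, 8.07 and 8.18 in control cells (log2 change 4.64, SE 0.07, adjusted p = 5.29e-16 by limma). A second PBLD probe was at least 18.1-fold higher in PBLD cells, and the other 2 PBLD probes were not called (changes of -0.05 and 0.05). All 8 measured hepatocyte markers, among them ALB and AFP, were above background on all 6 arrays, and 4 of them (APOA1, APOB, TTR and SERPINA1) were called lower. Their summed level ran from 17.94 to 18.08 in PBLD cells and from 18.08 to 18.28 in control cells. Of 6 neuronal, 6 multiciliated-cell and 5 fibroblast markers, 0, 1 and 0 were above background on at least 3 arrays. The labels do not state that replicates came from separate cultures, and the p-values may therefore reflect technical spread alone. Fewer or more cells in mitosis and less or more RNA per cell cannot be told apart in bulk RNA.

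The proximal promoters of 6 of the 10 mitotic kinesins that rose are shown because these genes moved together. Beside them stand the transport kinesins KIF5B, which rose, and KIF1C, which was not called. The genes shown were picked after their values and letters were seen, KIF1C as a window without the letters. Each line runs 5′ to 3′ on the gene's strand from 100 bases before to 20 bases after the RefSeq start (GRCh38.p14). Capitals mark TTTGAA or TTTAAA, the letters of the cell cycle homology region (CHR), and CCAAT, the letters bound by NF-Y, on either strand. On the other strand TTTGAA appears as TTCAAA and CCAAT as ATTGG.
KIF20A, chr5:138179012-138179131, plus strand: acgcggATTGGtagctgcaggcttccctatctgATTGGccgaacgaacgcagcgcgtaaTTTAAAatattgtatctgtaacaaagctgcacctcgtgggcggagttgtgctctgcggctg
KIFC1, chr6:33391723-33391842, plus strand: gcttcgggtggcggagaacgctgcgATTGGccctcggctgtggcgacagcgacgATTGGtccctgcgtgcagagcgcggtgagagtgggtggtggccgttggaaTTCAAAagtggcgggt
KIF2C, chr1:44739737-44739856, plus strand: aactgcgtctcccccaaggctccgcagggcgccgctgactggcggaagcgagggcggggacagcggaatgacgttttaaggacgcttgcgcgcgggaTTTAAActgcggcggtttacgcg
KIF23, chr15:69414249-69414368, plus strand: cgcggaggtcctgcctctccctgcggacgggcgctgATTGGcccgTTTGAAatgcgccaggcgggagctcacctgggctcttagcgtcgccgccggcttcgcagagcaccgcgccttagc
KIF18A, chr11:28108137-28108256, minus strand: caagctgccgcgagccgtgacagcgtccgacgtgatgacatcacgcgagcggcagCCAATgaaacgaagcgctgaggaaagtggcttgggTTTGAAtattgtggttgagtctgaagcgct
KIF11, chr10:92593030-92593149, plus strand: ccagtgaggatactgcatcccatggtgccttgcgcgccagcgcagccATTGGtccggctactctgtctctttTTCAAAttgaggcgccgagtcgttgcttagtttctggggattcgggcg
KIF5B, chr10:32056406-32056525, minus strand: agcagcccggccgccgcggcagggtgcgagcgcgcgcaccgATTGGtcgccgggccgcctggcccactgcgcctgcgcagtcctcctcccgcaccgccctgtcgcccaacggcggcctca
KIF1C, chr17:4997850-4997969, plus strand: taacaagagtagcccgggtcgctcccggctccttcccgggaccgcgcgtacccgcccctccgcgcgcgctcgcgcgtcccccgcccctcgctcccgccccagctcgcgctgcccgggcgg

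In the 300-base windows of 250 bases before to 50 after the start, TTTGAA or TTTAAA on either strand stood in 24% of all 35114 promoters. It stood in 11 of 13 mitotic kinesin promoters (84.6%), including all 10 of those that rose. Among transport kinesins it stood in 2 of 11 windows (18.2%), those of KIF5B and the uncalled KIF16B, among cilium and other kinesins in 0 of 9 and among tubulins in 3 of 22 (13.6%). CCAAT stood in 10 of 13 mitotic (76.9%), 3 of 11 transport (27.3%), 3 of 9 cilium and other (33.3%) and 12 of 22 tubulin windows (54.5%), against 34.6% of all promoters. These are matches of letters, not measured binding, and RefSeq windows were found for 55 of the 64 members. KIF5B holds TTTGAA, which lies outside the stretch shown, and CCAAT. TUBA1C and TUBB4B, above background and not called on their brightest probes, also hold both, as does KIF4B, above background on no array. The other TUBA1C probe was called higher. In TUBB4B all PBLD arrays lay above all control arrays, as in 13.6% of all genes. KIF16B and TUBB8, which hold TTTAAA, were not called, and their groups overlap. Their changes were -0.14 (KIF16B, brighter probe) and 0.007 (TUBB8, above background on 1 array). Whether the letters bear on the changes was not tested.

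The motors of cytokinesis and the central spindle rose. KIF20A, which brings the chromosomal passenger complex to the central spindle, read 11.28, 11.28 and 11.18 in PBLD cells and 10.67, 10.67 and 10.46 in control cells. It rose by 0.64 on the log2 scale (SE 0.07, limma adjusted p = 3.06e-05), or 1.56-fold, the largest change among the kinesins. KIF23, a subunit of the centralspindlin complex, read 9.35, 9.46 and 9.47 in PBLD cells and 8.96, 9.03 and 9.07 in control cells. Its change was 0.41 (SE 0.06, adjusted p = 0.000775). A second, dimmer KIF23 probe was above background on the 3 PBLD arrays and on no control array, with a bound of at least 1.04-fold that was not called (adjusted p = 0.468). KIF20B, which acts in late cytokinesis, read 10.31, 10.35 and 10.37 in PBLD cells and 10, 9.95 and 9.78 in control cells. KIF14, which recruits citron kinase to the midbody, read 9.73, 9.63 and 9.35 in PBLD cells and 9.12, 9.15 and 9.06 in control cells. KIF20B rose by 0.44 (SE 0.07, adjusted p = 0.000736) and KIF14 by 0.46 (SE 0.08, adjusted p = 0.00241). In each of these 4 genes the lowest PBLD array lay above the highest control array. KIF14 had the wider spread in PBLD cells, where the third array was its lowest.

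Motors that shape the spindle rose as well. KIFC1, a minus-end motor that gathers spindle poles, read 11.05, 11.04 and 11.03 in PBLD cells and 10.45, 10.65 and 10.37 in control cells. Its change was 0.55 (SE 0.07, adjusted p = 0.000159), or 1.47-fold. KIF11, the Eg5 motor that pushes the poles apart, read 9.89, 9.94 and 9.92 in PBLD cells and 9.66, 9.54 and 9.38 in control cells on its brighter probe. The KIF11 change was 0.39 (SE 0.07, adjusted p = 0.00278) on that probe and 0.44 (adjusted p = 0.00034) on its other probe. KIF15, which can assist KIF11 in keeping the spindle bipolar, read 9.13, 9.11 and 9.08 in PBLD cells and 8.83, 8.78 and 8.94 in control cells. KIF15 had the smallest rise of the class, 0.26 (SE 0.06, adjusted p = 0.0239). Its call was lost without PBLD replicate 1 (adjusted p = 0.10), PBLD replicate 2 (0.0573), control replicate 1 (0.0967) or control replicate 2 (0.124).

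Of the motors that act on chromosomes and microtubule ends, KIF2C, KIF4A and KIF18A rose. KIF2C (MCAK), which takes microtubules apart at centromeres, read 10.19, 10.20 and 10.04 in PBLD cells and 9.74, 9.58 and 9.59 in control cells. Its change was 0.51 (SE 0.07, adjusted p = 0.000238), or 1.42-fold. KIF4A, a chromosome-arm motor that also limits midzone length, read 9.62, 9.66 and 9.38 in PBLD cells and 9.16, 9.20 and 9.13 in control cells, a change of 0.39 (SE 0.07, adjusted p = 0.00344). Its copy KIF4B was above background on no array, and whether the KIF4A probe tells the copies apart was not tested. KIF18A, which dampens chromosome movement at the metaphase plate, read 8.53, 8.53 and 8.67 in PBLD cells and 8.26, 8.30 and 8.26 in control cells. The KIF18A change was 0.30 (SE 0.06, adjusted p = 0.00804), and its other probe was above background on no array. With the mean over the KIF18A probes the change was 0.16 and was not called (limma adjusted p = 0.155). KIF22 (Kid), which pushes chromosome arms away from the poles, read 11.17, 11.37 and 11.11 in PBLD cells and 11.13, 11.15 and 10.90 in control cells. The KIF22 groups overlap, and its change of 0.15 (SE 0.08) was not called (adjusted p = 0.436). KIF2B and KIF4B, the other uncalled members, were above background on 0 arrays.

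**Figure D1:**
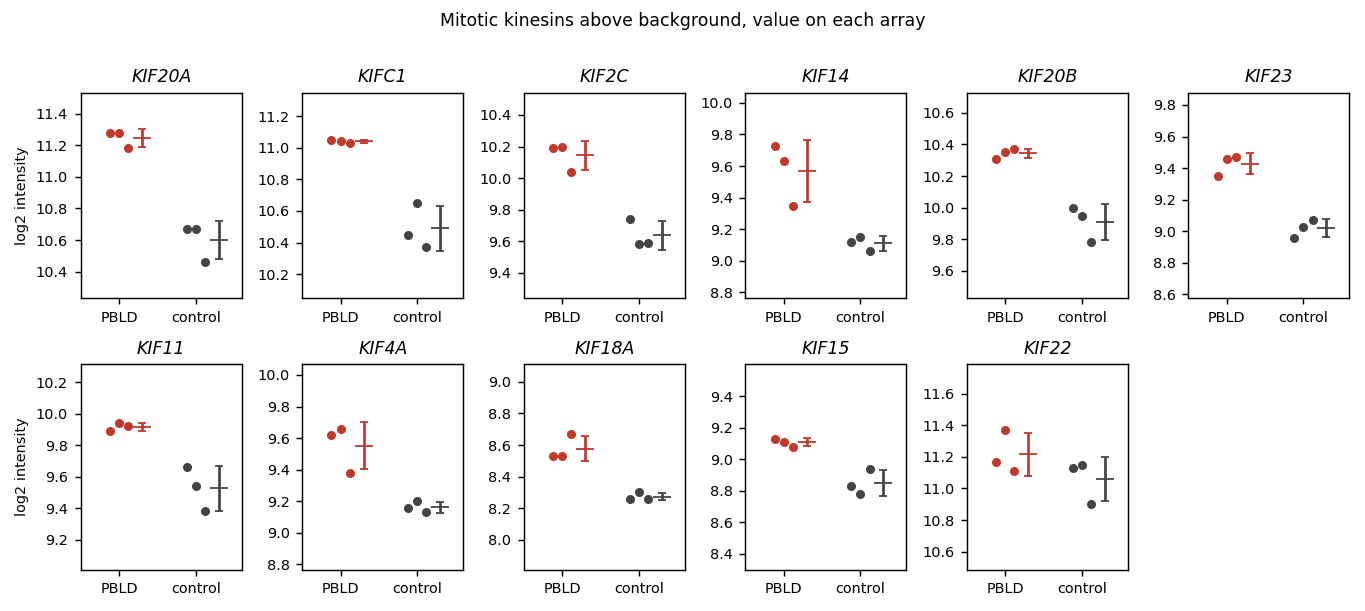
Deposited log2 intensity (y axis, the same span of 1.3 in each panel, not starting at 0) of the 11 mitotic kinesins above background, with PBLD arrays in red and control arrays in grey; each dot is 1 array, and the bar is the mean ± SD (n = 3). In 10 of the 11 genes all PBLD arrays lie above all control arrays, and in KIF22 the groups overlap.

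Set side by side, the mitotic and the transport class differed in their counts. The median log2 change was 0.39 over the 13 mitotic kinesins and -0.06 over the 15 transport kinesins, against 0.01 over all genes. The transport median is the value of KIF17, above background on 0 arrays, and its sign was not stable. It was 0.008 without PBLD replicate 3 and 0.01 with the mean over a gene's probes. With each gene set to its own control mean, the mitotic median was 0.37, 0.44 and 0.39 on the PBLD arrays and -0.001, 0.03 and -0.05 on the control arrays. The transport median was -0.04, -0.07 and -0.03 on the PBLD arrays and 0.06, 0.03 and -0.06 on the control arrays. The mitotic medians of the groups are apart and the transport medians overlap. The groups did not overlap in 10 of 13 mitotic kinesins, all higher in PBLD cells, where 13.6% of all genes did so in that direction. Among transport kinesins 1 was apart in that direction and 2 were apart with lower PBLD values, against 9.82% of all genes with lower PBLD values. Of the mitotic kinesins 11 were above background on at least 3 arrays, and of the transport kinesins 8. Of all 11022 genes above background on at least 3 arrays, 10.5% were called higher and 7.63% lower. Among these 11022 genes, 2219 had groups apart with higher PBLD values and 1494 with lower PBLD values. After normexp background correction and quantile normalization the calls fell to 3 mitotic kinesins (KIF20A, KIF2C and KIFC1) and 0 transport kinesins, although the mitotic median was then 0.47 and the transport median -0.16.

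**Figure D2:**
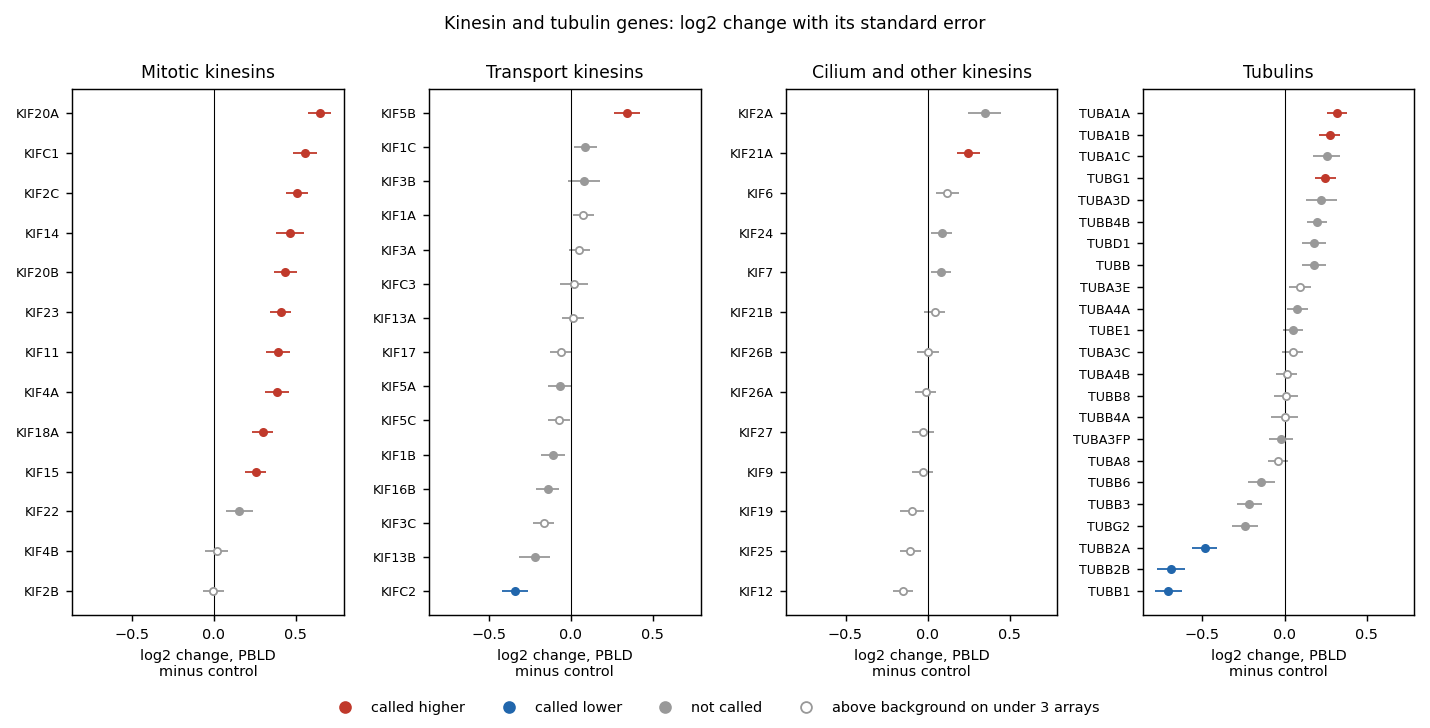
Log2 change, PBLD minus control (x axis), with its standard error for the 64 genes, each by its brightest probe, in 4 classes. Red is called higher, blue called lower, grey not called, and open symbols mark genes above background on fewer than 3 arrays; the mitotic kinesins lie to the right of 0 except KIF2B (-0.002) and KIF4B (0.02), which sit near 0.

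Among the transport kinesins the conventional kinesin heavy chain of most tissues rose. KIF5B read 10.13, 10.15 and 10.14 in PBLD cells and 9.91, 9.88 and 9.61 in control cells, a change of 0.34 (SE 0.08, adjusted p = 0.0112). Its neuronal relatives KIF5A and KIF5C were not called (changes of -0.06 and -0.07). KIF5A was above background on 1 PBLD and 2 control arrays, reading 8.06, 8.11 and 7.87 in PBLD cells and 8.14, 8.0 and 8.09 in control cells. KIFC2, a minus-end motor described in mouse neurons, read 8.79, 8.68 and 8.66 in PBLD cells and 9.23, 8.94 and 8.98 in control cells. It fell by 0.34 on the log2 scale (SE 0.08, adjusted p = 0.0131), and without control replicate 1, its highest array, by 0.25 with an adjusted p of 0.0816, no longer called. KIF5B kept its call without any 1 array.

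The other expressed transport motors did not pass, although KIF13B did under other settings. KIF13B, a carrier of phosphoinositide-bearing vesicles, read 9.60, 9.60 and 9.30 in PBLD cells and 9.86, 9.77 and 9.53 in control cells (change -0.22, SE 0.09, adjusted p = 0.251). It was called lower with quantile normalization (adjusted p = 0.028), cyclic loess (0.0199) and the replicate block (0.0309). KIF16B, an endosome motor, read 8.56, 8.55 and 8.72 in PBLD cells and 8.85, 8.69 and 8.72 in control cells (change -0.14, adjusted p = 0.393). The groups overlap in both genes. KIF1B, which carries mitochondria and synaptic vesicle precursors, read 11.41, 11.45 and 11.38 in PBLD cells and 11.58, 11.61 and 11.35 in control cells. Its 3 probes gave changes of -0.11, 0.10 and 0.06, none called. KIF1C, a motor of long-range vesicle transport, read 9.05, 9.27 and 9.20 in PBLD cells and 9.11, 9.12 and 9.03 in control cells (change 0.09, adjusted p = 0.706). KIF3B, a subunit of the kinesin-2 motor of intraflagellar transport, read 10.50, 10.37 and 10.35 in PBLD cells and 10.40, 10.53 and 10.04 in control cells (change 0.08, adjusted p = 0.848). On a second KIF3B probe the groups did not overlap (change 0.19, adjusted p = 0.108), again not called. KIF1A, KIF3A, KIF3C, KIF5C, KIF13A, KIF17 and KIFC3 were above background on fewer than 3 arrays, and KIF3C, above it on 2 control arrays and no PBLD array, had a bound of at least 1.02-fold lower that was not called.

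Of the remaining 13 kinesins 4 were above background on at least 3 arrays. KIF21A, which restrains microtubule growth at the cell cortex, read 10.40, 10.32 and 10.46 in PBLD cells and 10.19, 10.23 and 10.02 in control cells. It rose by 0.25 (SE 0.07) with an adjusted p of 0.0471, close to the threshold. That call was lost when any 1 array except PBLD replicate 2 was left out, with adjusted p from 0.0554 (without control replicate 2) to 0.204 (without control replicate 3). KIF2A, a depolymerase related to KIF2C, read 9.40, 9.56 and 9.79 in PBLD cells and 9.43, 9.26 and 9.03 in control cells. It was counted in this class although KIF2B and KIF2C were counted as mitotic, and the other placing was not tried. Its change of 0.35 was larger than that of KIF21A but so was its spread (SE 0.10), its groups overlap, and it was not called (adjusted p = 0.0541). KIF2A passed under 8 of the 16 alternatives. These were quantile normalization (adjusted p = 0.0308), 75th percentile scaling (0.00134), cyclic loess (0.0381), the trended robust fit (0.0233), the replicate block (0.0318), the filter on dim probes (0.0178) and omission of PBLD replicate 1 (0.0323) or control replicate 1 (0.0247). KIF21A was not called with quantile normalization (adjusted p = 0.0727), cyclic loess (0.125) or the trended robust fit (0.159), so under these KIF2A was the 1 gene called in this class. KIF7, which acts in Hedgehog signalling at the cilium tip, read 8.37, 8.34 and 8.34 in PBLD cells and 8.30, 8.28 and 8.23 in control cells (adjusted p = 0.675). KIF24, which acts at centrioles to restrain cilium formation, read 8.12, 8.15 and 8.09 in PBLD cells and 8.12, 8.02 and 7.96 in control cells (adjusted p = 0.681). KIF6, KIF9, KIF12, KIF19, KIF21B, KIF25, KIF26A, KIF26B and KIF27 were above background on fewer than 3 arrays, with changes between -0.15 and 0.12.

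Of the 6 alpha-tubulins above background 2 rose. TUBA1A read 15.08, 15.11 and 15.06 in PBLD cells and 14.81, 14.71 and 14.77 in control cells on its brighter probe, a change of 0.32 (SE 0.06, adjusted p = 0.00359). On its other probe the change was 0.53 (SE 0.08, adjusted p = 0.000645). TUBA1B, the common alpha-tubulin of dividing cells, read 15.14, 15.24 and 15.14 in PBLD cells and 14.86, 14.94 and 14.91 in control cells, a change of 0.27 (SE 0.06, adjusted p = 0.0125). The TUBA1B call was lost without PBLD replicate 2 (adjusted p = 0.0562) or control replicate 1 (0.0681). TUBA1C overlapped between groups on its brighter probe (change 0.26, adjusted p = 0.0897). That probe passed without PBLD replicate 3 (adjusted p = 0.0167), and with quantile normalization (0.0229), 75th percentile scaling (0.0179), cyclic loess (0.0202) and the replicate block (0.0151). Its other probe was called higher as deposited (change 0.35, SE 0.08, adjusted p = 0.0167). These 3 genes encode nearly identical proteins, so which of them a probe measures is uncertain. TUBA3D (0.22, adjusted p = 0.246) and TUBA4A (0.08, adjusted p = 0.729) were above background and were not called. A probe annotated to TUBA3FP, which RefSeq lists as a transcribed pseudogene, read 15.41, 15.67 and 15.49 in PBLD cells and 15.46, 15.61 and 15.57 in control cells. Its change was -0.02 (adjusted p = 0.962), while the other TUBA3FP probe was above background on no array. The bright probe read higher on average than any other alpha-tubulin probe, and which transcript it measures was not tested. TUBA3FP is counted among the alpha-tubulin genes. TUBA3C, TUBA3E, TUBA4B and TUBA8 were above background on 0 arrays.

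Of the 9 beta-tubulins 3 fell and 6 were not called. TUBB1, an isotype known from platelets and megakaryocytes, read 10.03, 9.89 and 9.77 in PBLD cells and 10.74, 10.58 and 10.48 in control cells. It fell by 0.71 on the log2 scale (SE 0.08, adjusted p = 3.7e-05), or 1.63-fold, the largest change of the whole family. TUBB2B, an isotype of developing neurons, read 9.58, 9.59 and 9.45 in PBLD cells and 10.36, 10.32 and 10.01 in control cells. TUBB2B fell by 0.69 (SE 0.08, adjusted p = 7.32e-05). Its close relative TUBB2A read 10.39, 10.53 and 10.54 in PBLD cells and 11.02, 11.09 and 10.82 in control cells, and fell by 0.49 (SE 0.08, adjusted p = 0.000657). In these 3 genes every PBLD array lay below every control array, and each kept its call under the 16 alternatives run. TUBB2A and TUBB2B are near-identical, so their probes may not tell them apart.

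The widely expressed beta-tubulins were not called. TUBB, a beta-tubulin of most tissues, read 13.56, 13.67 and 13.61 in PBLD cells and 13.47, 13.53 and 13.30 in control cells (change 0.18, SE 0.07, adjusted p = 0.206). TUBB4B read 12.62, 12.75 and 12.69 in PBLD cells and 12.50, 12.52 and 12.44 in control cells (change 0.20, SE 0.06, adjusted p = 0.0875). Both had all PBLD arrays above all control arrays, yet neither was called. TUBB3, an isotype known from neurons and many tumours, read 12.39, 12.39 and 12.32 in PBLD cells and 12.61, 12.73 and 12.42 in control cells (change -0.22, SE 0.08, adjusted p = 0.128). The TUBB3 groups did not overlap, with all PBLD arrays lower. TUBB3 passed as lower without control replicate 3 (change -0.30, adjusted p = 0.02), and with quantile normalization (adjusted p = 0.00658), cyclic loess (0.00723) and the replicate block (0.0473). TUBB6 had changes of -0.14 and -0.20 on its probes, and TUBB4A and TUBB8 were above background on 1 array each, with no call. Over the 10 alpha-tubulin genes 2 rose and 0 fell, with a median change of 0.09. Over the 9 beta-tubulin genes 0 rose and 3 fell, with a median of -0.14.

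Of the blood cell and platelet markers, PF4 and PTPRC were above background on no array, PPBP and CD68 on all 6, and ITGA2B on 1 PBLD and 3 control arrays. Their summed level, as log2 of the summed intensities of 5 genes, ran from 11.26 to 11.44 in PBLD cells and from 11.36 to 11.67 in control cells. Their part in the TUBB1 result was not tested.

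Of the gamma-tubulins 1 rose and 1 was not called. TUBG1, the main gamma-tubulin of centrosomes, read 12.82, 12.84 and 12.71 in PBLD cells and 12.58, 12.56 and 12.49 in control cells on its brightest probe. It rose by 0.25 (SE 0.06, adjusted p = 0.0297), but the other 4 TUBG1 probes were not called, with changes from -0.01 to 0.22. The call was also lost without any 1 array other than PBLD replicate 3, with adjusted p from 0.0631 (without control replicate 1) to 0.121 (without PBLD replicate 1). TUBG2, a second gamma-tubulin, read 9.93, 10.05 and 9.81 in PBLD cells and 10.31, 10.15 and 10.06 in control cells. All PBLD arrays lay below all control arrays, but the change of -0.24 (SE 0.08) was not called (adjusted p = 0.0917). TUBG2 passed without PBLD replicate 2 (adjusted p = 0.039) or control replicate 3 (0.0485), and with quantile normalization (0.00522), cyclic loess (0.00277), 75th percentile scaling (0.0355) and the replicate block (0.0292). TUBD1 and TUBE1, tubulins of the centriole, had changes of 0.18 (adjusted p = 0.214) and 0.05 (adjusted p = 0.847). After normexp and quantile normalization the called tubulins were TUBB1, TUBB2A and TUBB2B only.

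**Figure D3:**
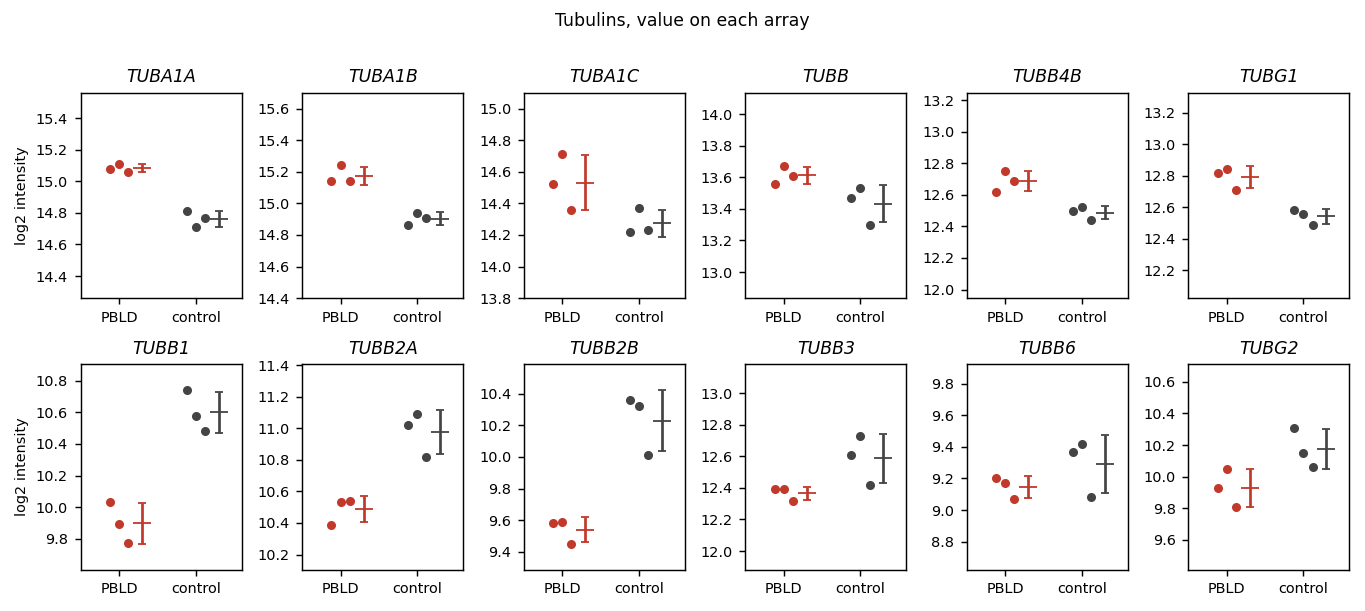
Deposited log2 intensity (y axis, the same span of 1.3 in each panel, not starting at 0) of 12 tubulins on each array, with PBLD arrays in red and control arrays in grey; the bar is the mean ± SD (n = 3). TUBA1A, TUBA1B and TUBG1 (called higher) and TUBB1, TUBB2A and TUBB2B (called lower) have groups that do not overlap. So do the uncalled TUBB and TUBB4B (PBLD arrays higher) and TUBB3 and TUBG2 (PBLD arrays lower). The 12 tubulins shown were picked from the 23. TUBA3D, TUBA4A, TUBA3FP, TUBD1 and TUBE1, also above background, are not shown, and their groups overlap. Over all 23 tubulins the groups were apart in 5 with higher and 5 with lower PBLD values. Over all genes the groups were apart in 13.6% with higher and 9.82% with lower PBLD values. Among the 11022 genes above background on at least 3 arrays these were 2219 and 1494 genes.

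Partner genes of the mitotic motors rose with them. Of 26 spindle and midbody partners, 23 rose and 0 fell, with a median change of 0.42. By the same rule 5.81% of all genes were called higher, and 10.5% of those above background on at least 3 arrays. The named risers are PRC1, the midzone bundler that KIF4A and KIF20A work with (0.65, SE 0.08), BIRC5, the survivin subunit of the chromosomal passenger complex (0.58), the spindle kinase AURKA (0.56), and the kinetochore kinesin CENPE (0.49). Their adjusted p ran from 4.92e-05 (AURKA) to 0.000188 (CENPE). The 3 that did not pass were CKAP5 (0.21, adjusted p = 0.143), NUMA1 (0.07) and CIT (0.01), named after their values were seen. That mitotic genes rise in these samples was known when this list was chosen, so it is not independent of the kinesin counts.

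Partners of the transport motors and of tubulin were called at shares nearer the 10% of all genes. Of 20 kinesin light chains and adaptors, 0 rose and 1 fell, MAPK8IP3, a JNK scaffold that binds kinesin-1 (-0.33, SE 0.08, adjusted p = 0.0261). The light chains KLC1, KLC2 and KLC4 had differences of 0.08, 0.04 and -0.07 with no call. Of 22 dynein and dynactin genes, the opposite-direction motor and its activator, 0 were called by limma and 3 had an unadjusted p under 0.05 (median change 0.03, range -0.19 to 0.23). Of 15 tubulin folding and autoregulation genes 1 rose, VBP1, a prefoldin subunit that hands tubulin to the chaperonin (0.28, adjusted p = 0.0262). TTC5, which recognises nascent tubulin in autoregulation, had a change of 0.19 (adjusted p = 0.35). Of 11 genes of the gamma-tubulin complex 1 rose, PCNT, the pericentrin scaffold (0.31, adjusted p = 0.00831).

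Enzymes and binding proteins of microtubules were called at shares near the background. That background was 10% of all genes and 18.1% of genes above the limit on at least 3 arrays. Of 21 tubulin modification genes 3 rose and 0 fell (14.3% called). They were TTL, which adds the terminal tyrosine back to alpha-tubulin (0.43, SE 0.09, adjusted p = 0.00475), TTLL12 (0.33, adjusted p = 0.0109) and TTLL4, a glutamylase (0.24, adjusted p = 0.0441). Of 22 microtubule binding and severing genes 2 rose and 1 fell (13.6% called). STMN1, stathmin, which binds tubulin dimers and destabilises microtubules, rose by 0.45 (SE 0.07, adjusted p = 0.000804). MAPRE1, the plus-end protein EB1, rose by 0.29 (adjusted p = 0.021), while CKAP4, which anchors the endoplasmic reticulum to microtubules, fell by 0.47 (adjusted p = 0.000804).

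**Figure D4:**
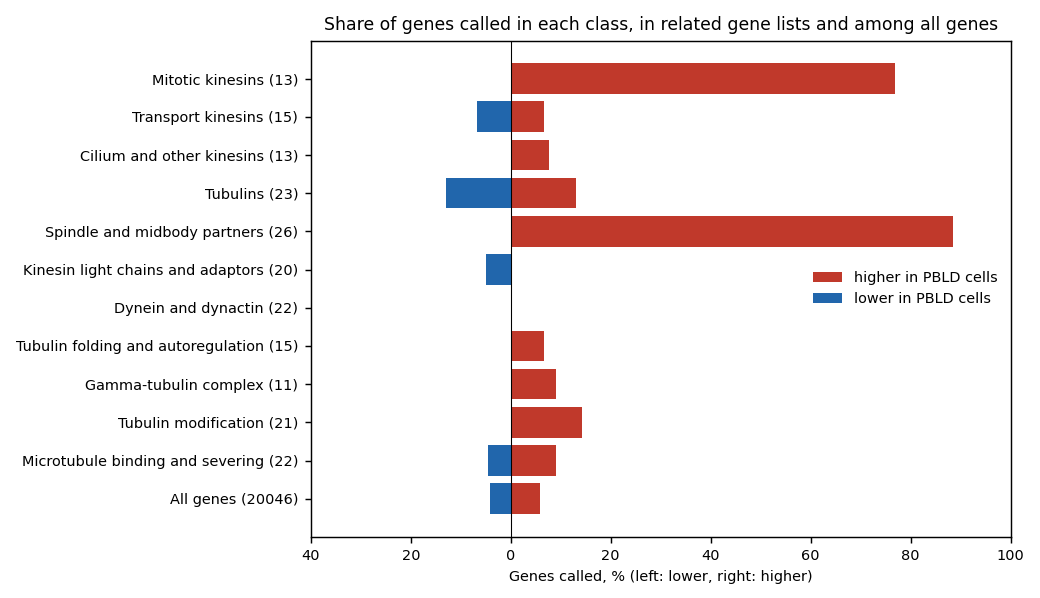
Percentage of genes called higher (red, right) and lower (blue, left) in PBLD cells, in the 4 classes of kinesins and tubulins, in 7 lists of partner genes and among all 20046 genes; the number of genes is in brackets. Mitotic kinesins (76.9% higher) and spindle and midbody partners (88.5% higher) stand beside 5.81% of all genes. Among the 11022 genes above background on at least 3 arrays, not drawn, the share called higher was 10.5%. The spindle and midbody list was chosen with the rise of mitotic genes known.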

How the data were processed

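Per the submitters' processing notes the arrays were read with BeadStudio. The authors deposited 47323 probe values for each of 6 arrays, treated here as log2 intensity because of their range; the sources used here do not state their scaling or background treatment. The deposited non-normalized signals were left aside, because the names of those 12 per-sample columns match no sample label. Groups and replicate numbers came from sample titles. The members and lists were chosen with earlier results of these data known.

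Every probe entered a limma 3.58.1 fit (lmFit, eBayes; R 4.3.3; two-sided) of PBLD minus control, and p-values were adjusted over the whole table by Benjamini-Hochberg. Where a gene had several probes, the brightest on average stood for it. The background limit was set per array at percentile 95 of the probes of silent genes (receptors of the olfactory, taste and vomeronasal families, keratin-associated proteins). Folds against a group with no array above that limit are bounds. Values near the limit compress folds. The number of arrays limits the precision; an exact permutation of 3 against 3 cannot go below p = 0.1.

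Array values were given for every called member, and for uncalled members above background where a class had 6 or fewer; up to 4 called genes per direction of each partner list were named, by smallest p. Other tubulins, TTC5 and the light chains were named after their values were seen. Simulated data for PBLD minus control (47323 probes, 50 changed per fold, picked among probes above the limit on 3 or more arrays) gave 82% recovery at 1.25-fold and 100% at 1.5-fold, with 11 false calls of 202. The simulated noise was normal and independent between probes, with no shared array effect. These shares therefore check the fit and do not give the power of the measured arrays. Alternatives were 4 other scalings (quantile, 75th percentile, cyclic loess, normexp with offset 50), a trended robust fit, array weights, the replicate block, omission of single arrays, a dim-probe filter, a threshold of 0.01 and other probe rules. All 91 member probes matched RefSeq (GRCh38.p14) by Entrez identifier, with 0 symbols changed. Figures used matplotlib 3.10.9 (Python 3.11.15).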

Additional observations from a re-analysis of the deposited data

How the results depend on the processing

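Of the 19 called kinesins and tubulins, 6 (KIF20A, KIF2C, KIFC1, TUBB1, TUBB2A and TUBB2B) were called under all 16 alternatives run for each gene, and 0 changed sign. Normexp and quantile normalization lowered the count to 6 in all, 3 mitotic kinesins, 0 transport kinesins, 0 cilium and other kinesins and 3 tubulins; 651 genes were then called, against 2006, and the cause was not tested. The transport count was 0 at a threshold of 0.01, which asks for more by construction. The cilium and other count of 1 became 2 with 75th percentile scaling, the replicate block and the filter on dim probes (which tests fewer genes), and 0 with array weights, the threshold of 0.01 and the mean over a gene's probes. Leaving out 1 array gave 15 to 19 called members, 9 to 10 mitotic, 1 to 2 transport, 0 to 1 cilium and other kinesins and 4 to 7 tubulins. Without control replicate 1 the transport count was 1, and without PBLD replicate 3, control replicate 2 or control replicate 3 the cilium and other count was 0. With quantile normalization, cyclic loess and the trended robust fit the cilium and other count stayed at 1, but KIF21A was lost and KIF2A gained. The trended robust fit also lost KIF15 (limma adjusted p = 0.0822), TUBA1B (0.0833) and TUBG1 (0.162). Under it 16 members were called, and TUBA1A was the 1 tubulin called higher. Quantile normalization and cyclic loess each called 23 members, losing KIF21A and adding KIF13B, KIF2A, TUBA1C, TUBB3 and TUBG2. The tubulins were then 9 (4 higher, 5 lower) against 6 (3 and 3), and the transport kinesins 3 (1 higher, 2 lower) against 2. These scalings called 2622 and 2652 genes, the block 2720, and the threshold of 0.01 1171. The median over all genes stayed between 0.0006 and 0.02 in the 16 alternatives that give one.

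The replicate numbers were not taken as pairs: deviations of same-numbered arrays correlated at 0.11, 0.08 and 0.06 over 19214 probes, each array best with its own number, a hint from the data. The replicate block gave 24 called members, keeping all 19 and adding KIF13B, KIF2A, TUBA1C, TUBB3 and TUBG2, with 10 mitotic, 3 transport and 9 tubulin genes. Signal over background limits what can be called among the 24 members above background on fewer than 3 arrays.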
